A study of Mus musculus with 2 samples.

Results

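The genes described here are 10 markers of primitive endoderm and of endoderm more widely, read from a comparison of mESCs kept in LIF with mESCs given LIF plus CHIR. They were taken from a fixed list of names, Gata4, Gata6, Sox17, Sox7, Foxa2, Pdgfra, Dab2, Hnf4a, Afp and Ttr, and each name matched 1 of the 30774 gene identifiers on the array, so all 10 had values. Both samples were B6 mESCs (strain B6, with the inner cell mass of the E3.5 embryo given as their source) in serum medium, and both received LIF, the cytokine that activates Stat3. The treated sample also received CHIR99021 (CHIR) for 12 h, a compound that blocks GSK3 and thereby stabilises β-catenin, the effector of Wnt. Total RNA of 1 sample per condition was labelled with biotin and hybridized to an Illumina mouse beadchip, so 2 arrays were compared and the spread between cultures was not measured. The dose of CHIR on the arrays is not given in the sources used here, and the study's methods describe 46C mESCs whereas the labels name B6 mESCs.

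Primitive endoderm is the layer that separates from the epiblast inside the blastocyst, and it later gives the visceral and parietal endoderm of the yolk sac. In the inner cell mass, Nanog and Gata6 come to mark opposite fates. FGF4 made by epiblast cells and acting through FGF receptors and ERK pushes neighbouring cells towards Gata6, Sox17, Gata4 and Sox7. Definitive endoderm arises later, at the primitive streak, under Nodal and Wnt signals, and shares Sox17 and Foxa2 with the yolk sac layers. mESCs correspond to the epiblast side of this choice, although cultures in serum and LIF can contain a few cells that have turned on primitive endoderm genes.

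Of the 10 genes, 2 were detected and 8 were not. A gene counted as detected where its detection p-value, which compares its signal with the negative control beads of the same array, was under 0.01. Sox7 and Hnf4a were detected on both arrays, and the other 8 on neither. Over the whole array, the detected share was 29.3% of identifiers in LIF and 29.8% with CHIR added. The signals of the 10 genes ran from -14.02 to 64.7 arbitrary units over both arrays, on a linear scale from which background had been subtracted, and 3 of the genes (Foxa2, Afp and Ttr) lay below 0 on both. The median of the 10 was 11.0 in LIF and 11.3 with CHIR. The signal was higher with CHIR for 5 genes and lower for 5, and for 4 (Gata4, Sox17, Foxa2 and Pdgfra) the arrays differed by less than 1 unit. These are bulk RNA samples, in which fewer expressing cells and less RNA per cell cannot be told apart.

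**Figure D1:**
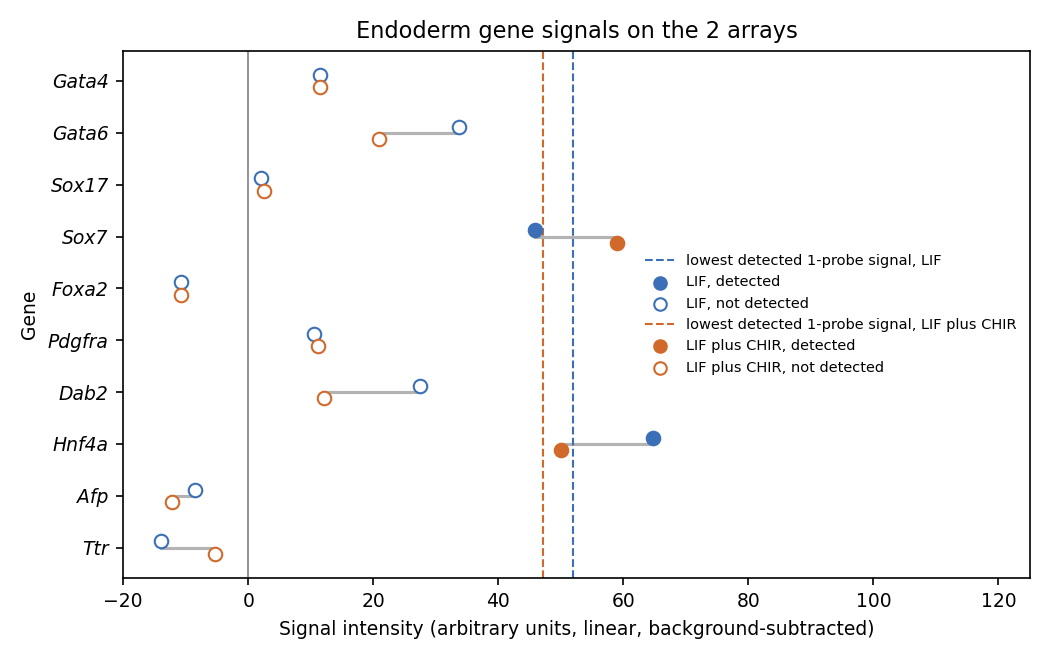
Signal intensity (arbitrary units, linear scale) of each of the 10 endoderm genes in LIF (blue) and LIF plus CHIR (orange), 1 array each, with filled points for detected signals. Dashed lines mark the lowest detected signal among identifiers that appeared to have 1 probe, 51.9 in LIF and 47.1 with CHIR, and only Sox7 and Hnf4a come near or past them.

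No gene of the 10 passed the limit of 1.5-fold in either direction. Among the 9615 identifiers detected on at least 1 array, 8.13% passed it, 4.11% as higher and 4.02% as lower in LIF plus CHIR. Among the 8580 detected on both arrays, as Sox7 and Hnf4a were, 5.01% passed. Among the 1825 whose brighter signal was under 100, the range in which these genes lay, 20.7% passed. With 2 of the 10 genes entering the comparison, the count of 0 does not set the group apart from other identifiers. With 1 array per condition, the differences carry no p-value.

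Hnf4a (Entrez gene 15378, band 2qH3), a nuclear receptor that drives the secretory and metabolic genes of visceral endoderm and liver, had a signal of 64.7 in LIF and 50.01 with CHIR. The detection p-values were 0.00214 and 0.00962, which for an identifier with 1 probe correspond to 2 and 9 of 936 negative controls at least as bright. The signal was thus 1.29-fold higher in LIF (log2 fold change of LIF plus CHIR over LIF -0.37), and the value with CHIR lay just inside the detection limit. Sox7, an HMG-box factor of the SoxF family that appears late in primitive endoderm and stays on in parietal endoderm, went the other way. Its signal was 45.9 in LIF and 59.0 with CHIR, with detection p-values of 0.000169 and 0.000129. This was 1.29-fold higher with CHIR (log2 fold change 0.36). The Sox7 entry came from a Riken source and, unlike those of the other members, carried no Entrez number, band or transcript name. Sox7 appeared to be measured by several probes, whose p-values are combined, and its signal in LIF lay below the 51.9 units that identifiers with 1 probe needed to be detected there. With that value as the minimum, the log2 fold change was 0.18.

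The other transcription factors of the group were close to background. Gata4 (Entrez gene 14463, band 14qD1) and Gata6 (Entrez gene 14465, band 18qA1) encode zinc finger proteins that bind the GATA motif, and each can turn mESCs into primitive endoderm when forced on. Gata4 had a signal of 11.4 on each array, with detection p-values of 0.184 in LIF and 0.188 with CHIR, so that 172 and 176 of the 936 controls were at least as bright. Gata6 had a signal of 33.7 in LIF and 20.9 with CHIR. Its detection p-values were 0.0459 and 0.114, with 43 and 107 controls at least as bright. Gata6 was therefore the member nearest to the detection limit among those that missed it on both arrays and have 1 probe. At a detection p-value under 0.05 it was detected in LIF only. Against the lowest signal that 1-probe identifiers needed with CHIR at that limit, 31.3 units, it was at least 1.08-fold higher in LIF and did not pass 1.5-fold. It passed only where its undetected signal with CHIR was taken at face value (1.61-fold, log2 fold change -0.68), in a setting where 11.7% of 11702 identifiers passed.

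Sox17 (Entrez gene 20671, band 1qA1), the SoxF factor shared by primitive and definitive endoderm, had a signal of 2.10 in LIF and 2.46 with CHIR, with detection p-values of 0.210 and 0.262. Foxa2 (Entrez gene 15376, band 2qG3), a forkhead factor that opens chromatin at endoderm genes, had -10.7 on both arrays, with detection p-values of 0.882 and 0.884. Neither value moved by more than a fraction of a unit.

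Pdgfra and Dab2 represent the cell surface and the endocytic machinery. Pdgfra (Entrez gene 18595, band 5qC3.3), the receptor for PDGF-AA and one of the earliest surface markers of primitive endoderm, had a signal of 10.6 in LIF and 11.2 with CHIR, with detection p-values of 0.177 and 0.165. Dab2 (Entrez gene 13132, band 15qA1), a clathrin adaptor needed for uptake by visceral endoderm, had 27.5 in LIF and 12.1 with CHIR, with detection p-values of 0.0547 and 0.121. The annotation ties the Pdgfra entry to transcript variant 1 and the Dab2 entry to transcript variant 2, and both entries appeared to combine several probes. Other transcripts of these genes were not read out separately.

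Afp and Ttr are the secreted products of the mature visceral endoderm. Afp (Entrez gene 11576, band 5qE1), the fetal counterpart of albumin, had a signal of -8.49 in LIF and -12.3 with CHIR, with 612 and 775 of the 936 controls at least as bright. Ttr (Entrez gene 22139, band 18qA2), which carries thyroid hormone and retinol-binding protein, had -14.02 and -5.29, with 840 and 499 controls at least as bright. Both therefore lay below the middle of the negative controls on both arrays.

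The differences of the undetected genes were set beside those of other undetected identifiers, as a description. For the 15569 identifiers with 1 probe detected on neither array, the arrays differed by a median of 5.02 units in size, and by at most 16.2 units for 95% of them. The signal difference (LIF plus CHIR minus LIF) was -12.7 for Gata6, 8.73 for Ttr, -3.77 for Afp and 0.0411 for Gata4. Differences at least that large in size were found for 10.4%, 24.9%, 60.6% and 99.6% of these identifiers. For Dab2 the difference was -15.3, and 18.2% of the 5590 undetected identifiers with several probes differed at least as much. Each of these differences, Gata6 included, was smaller than the size that 95% of undetected identifiers of the same kind stayed under. For those with several probes that size was 77.4 units. The set with several probes includes bright identifiers that missed the detection limit, such as Klf5 (7356 in LIF and 8295 with CHIR). Its 77.4 units and 18.2% therefore do not describe identifiers as dim as Dab2.

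**Figure D2:**
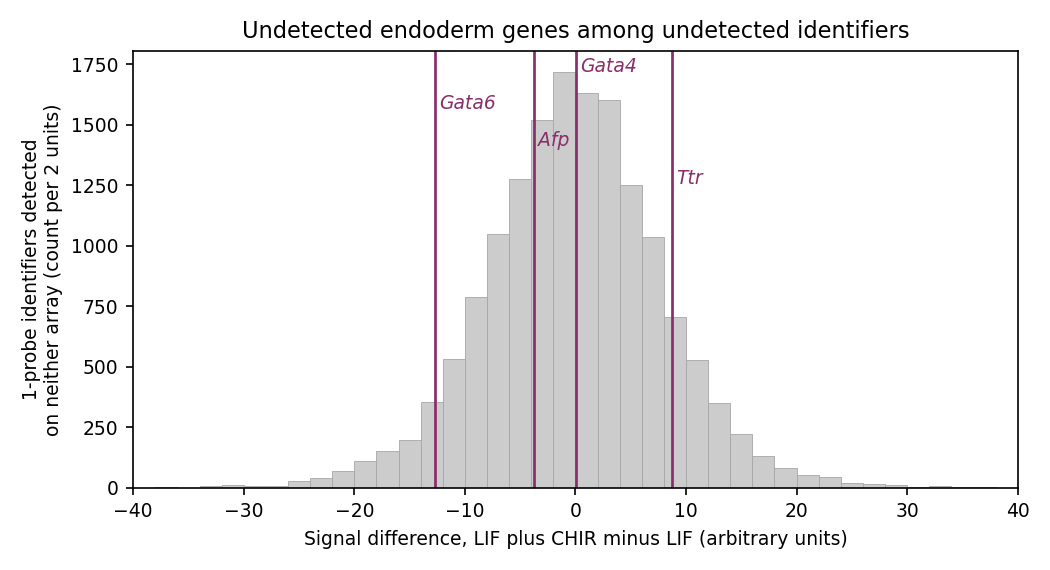
Number of identifiers (1 probe, detected on neither array, 15569 in all) by signal difference, LIF plus CHIR minus LIF, in bins of 2 units, with lines for Gata6 (-12.7), Afp (-3.77), Gata4 (0.0411) and Ttr (8.73). Each line stands inside the bulk of the distribution, and Gata6 is the farthest from 0.

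The promoters of the members show which sequence letters stand near their start sites. For the members, any windows on the chromosome of Gata6 and Ttr (bands 18qA1 and 18qA2) were left out. RefSeq (GRCm38.p6) windows of 250 bases before and 50 after a start were used for 5 of the 10 genes, 9 windows in all. They were searched on both strands for AGATAA or TGATAA, which GATA factors recognise, and for CTTTGAA or CTTTGAT, which TCF/LEF factors, the DNA-bound partners of β-catenin, recognise. The GATA letters stood in 3 of the 9 windows and the TCF/LEF letters in 1, against 18.6% and 8.65% of all 32851 windows. No 2 matches overlapped. The 3 windows with a match are printed because they hold letters recognised by a factor family of the group or of the pathway that CHIR acts on. They run 5′ to 3′ along the gene, with the matches in capitals. The Hnf4a window (chr2:163506607-163506906, plus strand) holds AGATAA 52 bases before the start. The Dab2 window (chr15:6299539-6299838, plus strand) holds TGATAA 179 bases before the start, and TTATCT, the reverse complement of AGATAA, at base 15 of the transcript. The Foxa2 window (chr2:148045415-148045714, minus strand) belongs to the most downstream of its 3 annotated starts, with AGATAA 183 bases before the start and ATCAAAG, the reverse complement of CTTTGAT, at base 15 of the transcript.
Hnf4a: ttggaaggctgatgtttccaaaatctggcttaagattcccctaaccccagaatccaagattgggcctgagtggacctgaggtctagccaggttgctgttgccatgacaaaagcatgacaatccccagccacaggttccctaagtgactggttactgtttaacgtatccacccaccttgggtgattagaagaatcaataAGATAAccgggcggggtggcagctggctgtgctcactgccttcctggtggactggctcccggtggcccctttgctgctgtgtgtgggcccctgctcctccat
Dab2: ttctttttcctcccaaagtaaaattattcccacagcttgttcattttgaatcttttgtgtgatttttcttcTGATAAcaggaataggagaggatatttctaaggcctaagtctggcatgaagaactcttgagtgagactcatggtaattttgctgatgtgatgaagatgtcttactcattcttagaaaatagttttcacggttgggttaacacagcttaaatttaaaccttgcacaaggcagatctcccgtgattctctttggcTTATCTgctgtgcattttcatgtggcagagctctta
Foxa2: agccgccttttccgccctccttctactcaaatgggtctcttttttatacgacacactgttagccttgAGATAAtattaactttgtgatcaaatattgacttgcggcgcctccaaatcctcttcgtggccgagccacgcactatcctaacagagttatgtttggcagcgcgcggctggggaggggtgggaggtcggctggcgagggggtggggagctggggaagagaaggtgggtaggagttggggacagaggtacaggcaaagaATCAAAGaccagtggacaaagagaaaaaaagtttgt

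These matches describe letters and are not measured binding sites. Beside them stand the signals given above: Hnf4a detected on both arrays, Dab2 and Foxa2 on neither, and Gata4 and Gata6 on neither. The array gives 1 value per gene and does not separate the 2 annotated starts of Hnf4a or of Dab2, or the 3 of Foxa2. Among the remaining 6 windows, those of Pdgfra and Afp and the other starts of Hnf4a, Dab2 and Foxa2, none held either set of letters.

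Relatives of the members were measured on the same arrays, and 3 of 13 were detected. Gata2, a GATA factor of blood and trophoblast lineages, had a signal of 96.0 in LIF and 234.0 with CHIR, 2.44-fold higher with CHIR (log2 fold change 1.29), while Gata1, Gata3 and Gata5 were undetected on both arrays. Foxa3, the forkhead relative of Foxa2, had 726.6 and 771.0 (log2 fold change 0.09). Dab1, the neuronal relative of Dab2, had 206.9 and 172.2 (log2 fold change -0.26). Sox18, the remaining SoxF gene, had 14.2 in LIF and -0.276 with CHIR and was undetected, as were Foxa1, Hnf4g, Pdgfrb and the albumin family genes Alb, Afm and Gc. Of the 13 relatives, Gata2 was the 1 past 1.5-fold, a limit that 5.01% of all identifiers detected on both arrays passed.

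**Figure D3:**
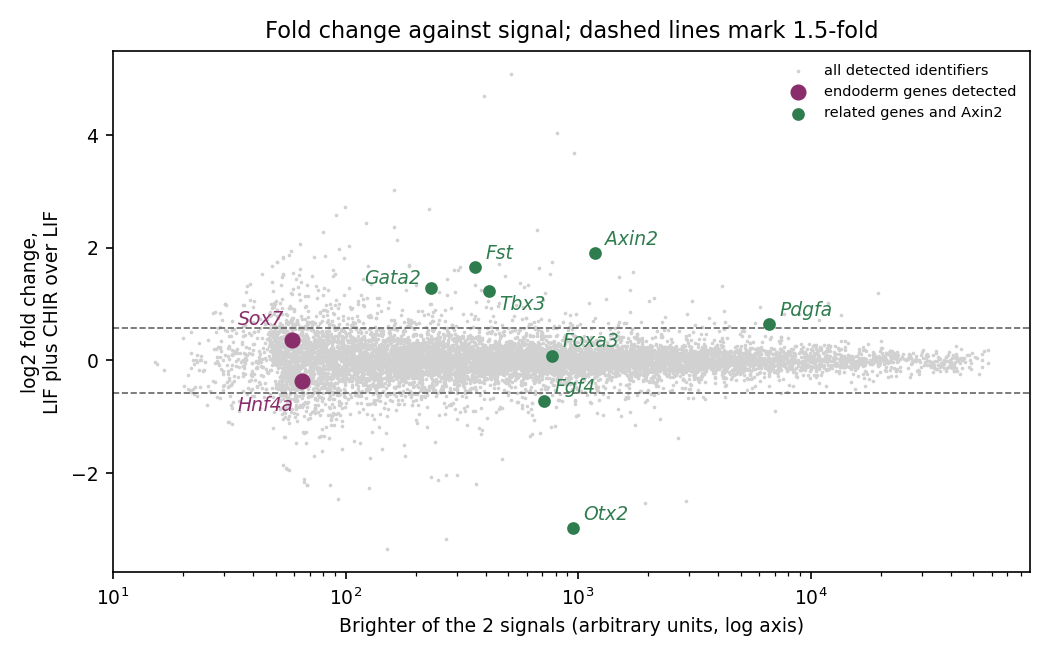
log2 fold change (LIF plus CHIR over LIF) against the brighter of the 2 signals (arbitrary units, log axis) for the 9615 identifiers detected on at least 1 array, 1 array per condition. Sox7 (0.36) and Hnf4a (-0.37) lie inside the dashed 1.5-fold lines at the dim end, where the grey cloud is widest, whereas Gata2, Fst, Tbx3, Axin2 and Otx2 lie outside them.

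The signals that act on primitive endoderm were then examined, with 21 genes for its factors, ligands and receptors, 20 of them on the array. Of these, 8 were detected, 2 were higher with CHIR by at least 1.5-fold, 1 was lower and 5 were within the limit. Over the whole array, 31.2% of identifiers were detected on at least 1 array, and 8.13% of those passed 1.5-fold. Of identifiers detected on both arrays, as all 8 were, 5.01% passed. The same shares stand beside the counts of the lists below, and whether a list departs from them was not tested. The median log2 fold change of the 8 was -0.07, against 0.00 over all 9615 identifiers. Fgf4, the ligand that drives primitive endoderm formation, had 712.7 in LIF and 430.1 with CHIR, 1.66-fold lower with CHIR (log2 fold change -0.73). Fst, which encodes the activin antagonist follistatin, had 113.4 and 359.0 (log2 fold change 1.66). Tbx3, a T-box factor known both in naive mESCs and in primitive endoderm, had 176.7 and 414.3 (log2 fold change 1.23). The brightest genes of the list were Sall4, at 6521 and 5980 (log2 fold change -0.12), Rhox5, at 5147 and 4025 (-0.35), and Bmp4, at 1504 and 2174 (0.53). Foxq1, Cited1 and Ihh were undetected on both arrays.

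Of 7 PDGF ligand and receptor genes, 2 were detected, 1 higher with CHIR and 1 within the limit. Pdgfa, which encodes the ligand of Pdgfra, had 4250 in LIF and 6638 with CHIR, 1.56-fold higher with CHIR (log2 fold change 0.64). Its receptor gene Pdgfra was undetected on both arrays at the values given above, as was Pdgfrb (-3.79 and -5.67). Of the other ligand genes, Pdgfc was detected in LIF only (99.5 and 74.0, log2 fold change -0.43), and Pdgfb, at 46.0 and 52.1, and Pdgfd were undetected.

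Of 19 parietal endoderm and basement membrane genes, 16 were detected, 2 of them higher with CHIR, none lower and 14 within the limit, with a median log2 fold change of -0.05. The 3 brightest genes of the list differed little between the arrays. Lamc1, the gamma chain of laminin, had 3515 in LIF and 3453 with CHIR (log2 fold change -0.03), Nid2, which links laminin to collagen IV, had 3345 and 3389 (0.02), and Hspg2, the perlecan gene, had 2973 and 2948 (-0.01). The genes past the limit were Fbln1, a fibulin, with 274.6 and 441.2 (log2 fold change 0.68), and Serpinh1, a collagen chaperone, with 844.2 and 1345 (0.67). The collagen IV genes had lower signals, at 213.3 and 153.5 for Col4a1 (log2 fold change -0.47) and 89.3 and 100.7 for Col4a2 (0.17). The 3 undetected genes were Lamb1, Thbd and Plat. Pth1r, a parathyroid hormone receptor gene that marks parietal endoderm, was detected in LIF only, at 21.7 against 5.56 with CHIR (log2 fold change -0.55 against the minimum signal), as was Krt19 (53.8 and 39.9). Sparc, Krt8 and Krt18 were detected on both arrays within the limit. Basement membrane proteins are not particular to endoderm, and mESCs are known to make laminin.

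Of 24 genes for uptake and secretion by visceral endoderm, 9 were detected, 1 of them higher, 1 lower and 7 within the limit, with a median log2 fold change of 0.08. Ctsz, a lysosomal protease, was higher with CHIR, at 185.0 in LIF and 288.1 with CHIR (log2 fold change 0.64), and Soat2, which esterifies cholesterol, was lower, at 245.3 and 157.6 (-0.64). The brightest were Apoe, at 7440 and 9060 (log2 fold change 0.28), Lrpap1, a chaperone of the LDL receptor family, at 6130 and 6299 (0.04), and Apoa2, at 2326 and 2466 (0.08). Amn, the partner of the uptake receptor Cubn, was detected on both arrays at 178.7 and 169.4 (log2 fold change -0.08), as were Trf, which encodes transferrin, at 710.2 and 906.5 (0.35), and Apoc2 and Apom. The apolipoprotein genes Apoa1, Apoa4, Apob and Apoc3, the fibrinogen genes Fga, Fgb and Fgg, Rbp4 and Cubn were among the 15 undetected genes.

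Of 17 definitive and anterior visceral endoderm genes, 6 were detected, 1 of them higher, 1 lower and 4 within the limit, with a median log2 fold change of -0.03. Otx2, a homeobox factor of the epiblast and of anterior visceral endoderm, had 947.4 in LIF and 119.7 with CHIR, 7.91-fold lower with CHIR (log2 fold change -2.98). Gsc, a homeobox factor of the primitive streak and anterior endoderm, was detected with CHIR only, at 63.7 against 12.5 in LIF. It was at least 1.23-fold higher against the 1-probe minimum of 51.9, under the limit, and it passed the limit only with the minimum over all identifiers, 15.1 units (log2 fold change 2.08). Lefty1, a Nodal inhibitor, had 2896 and 2220 (log2 fold change -0.38), and Cldn6, a claudin, had 3967 and 3632 (-0.13). Klf5 was the brightest of the list, at 7356 and 8295, but its combined detection p-values, 0.272 and 0.486, kept it out of the counts. Hhex, a homeobox factor of anterior visceral and definitive endoderm, was detected on both arrays at 318.0 and 342.9 (log2 fold change 0.11). Cxcr4, Cer1, Mixl1, Eomes and Lhx1 were among the 11 genes undetected on both arrays.

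**Figure D4:**
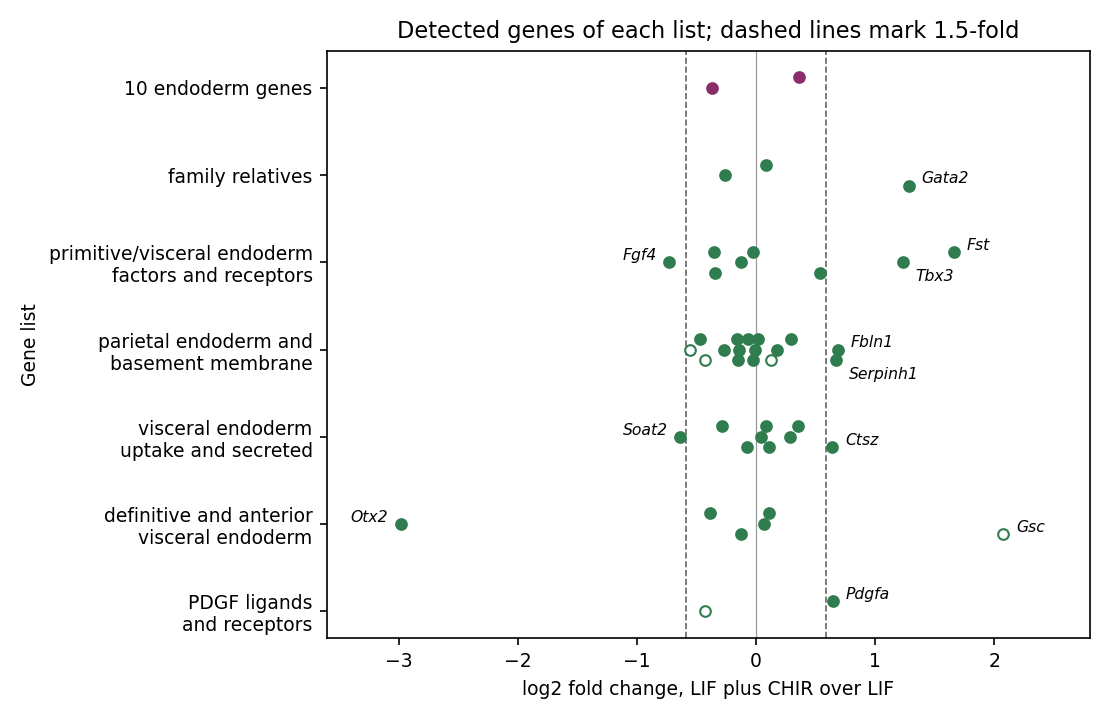
log2 fold change (LIF plus CHIR over LIF) of every detected gene in 7 gene lists, 1 point per gene, filled where both arrays detected it and open where 1 did; vertical position within a row has no meaning. The top row holds Sox7 and Hnf4a, both inside the 1.5-fold lines, and the farthest points are Otx2 (-2.98) and Gsc, whose open point rests on the minimum signal over all identifiers (2.08).

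The labels were checked on the same signals. Axin2, a feedback target of β-catenin, had 314.1 in LIF and 1178 with CHIR, 3.75-fold higher with CHIR. Sp5, another such target, was detected with CHIR only, at 809.5 against 48.8, and was at least 15.6-fold higher against the 1-probe minimum. The study picked Sp5 with these arrays for a rise of at least 1.5-fold, so Sp5 is not a separate check of the labels. Of 10 β-catenin feedback targets 5 were detected and 3 of them were higher, against 4.11% of all identifiers detected on at least 1 array. Of the 3, 1 (Axin2) was detected on both arrays. The third, Tcf7, was undetected in LIF and dim on both arrays (27.5 and 46.0). Notum had 580.1 and 589.7. Of 10 mESC markers, 8 were detected on both arrays, and the brightest were Dppa5a (57706 and 55732), Esrrb (10986 and 14053) and Pou5f1 (12346 and 11309). Nanog, the factor that opposes Gata6, had 1660 in LIF and 2429 with CHIR (log2 fold change 0.55, below the limit of 0.58), and Tfcp2l1 had 7658 and 13485 (0.82). Utf1 went the other way, at 5585 and 3972 (-0.49). Of the 8 detected mESC markers, 1 was higher by at least 1.5-fold, 0 were lower and 7 were within the limit, with a median log2 fold change of 0.22. Of all identifiers detected on both arrays, 5.01% passed the limit in either direction. Of 8 fibroblast markers 0 were detected at p under 0.01, and their signals summed to 198.2 in LIF and 196.2 with CHIR, the brightest being Thy1 (222.3 and 225.3, detection p-values 0.354 and 0.302), Col1a2 (24.7 and 16.6) and Lox (-11.7 and 3.34). Of 8 trophoblast markers, Tfap2c was detected on both arrays (3175 and 3329) and Cdx2 with CHIR only (23.6 and 93.5). Cdx2 was at least 1.80-fold higher with CHIR against the 1-probe minimum. The signals of the 8 summed to 3402 in LIF and 3594 with CHIR, most of each from Tfap2c. Tead4 (143.3 and 156.3), Ascl2 (90.7 and 52.3), Elf5, Hand1, Tpbpa and Prl3d1 were undetected. Whether such cells contributed to the values above was not tested.

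An array signal without a detection call does not tell a low RNA level from a probe that responds poorly. Genes that mESCs are known to use, named after their values were seen, were undetected too: Tdgf1 had 26.6 in LIF and 14.6 with CHIR, Epcam had -14.6 and -4.84, and Grb2 had 45.7 and 33.6. Lamb1, the beta chain that laminin requires, had -14.2 and -10.7. Whether the 8 undetected endoderm genes had little RNA or probes that respond poorly was not tested.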

How the data were processed

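Biotin-labelled total RNA of 1 sample per condition was hybridized to Illumina mouse beadchips. The authors deposited linear signal intensity per identifier, background-subtracted, since many values lie below 0. Median signals were 10.5 (LIF) and 10.4 (with CHIR). The authors labelled these signals as not normalized, and no normalization method is given in the sources available. Each deposited signal has a detection p-value. Identifiers whose p-values were multiples of 1 over 936 on both arrays (23355) were taken to have 1 probe, and the other 7419 several. A p-value of 0 counts as such a multiple, so bright identifiers with several probes may be among the 23355. A second, shorter table (11702 identifiers, 3 of the 10 members) was labelled as normalized but held the same values, with 0 differences.

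The log2 fold change of LIF plus CHIR over LIF was calculated (Python 3.11.15, numpy 2.4.6, pandas 2.3.3) wherever either array had a detection p-value under 0.01. Lower signals were raised to the lowest detected signal of their array (15.1 in LIF, 14.8 in LIF plus CHIR). The calculation was tested on simulated data. Changes were planted there only in identifiers brighter than any member, so the signal range of the members was not tested. Alternatives, some with limma 3.58.1 in R 4.3.3, are given at the end. With 1 array per condition no test between conditions was run and precision is limited by the number of arrays. The members and gene lists were chosen with earlier results of these data known. Of 144 listed genes, 136 were matched by symbol, 7 by Entrez number through the RefSeq table of GRCm38.p6, and 1 was unmatched. Named genes were all members, and per list every gene past 1.5-fold on both arrays and the 3 brightest. The other named genes were added after their values were seen. They were undetected, detected on 1 array, or detected on both arrays within the limit, such as Hhex and Amn.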

Additional observations from a re-analysis of the deposited data

How the results depend on the processing

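No paired analysis was possible because only 1 array existed per condition, and none could be left out. Of 11 alternatives, detection by signal and a detection p-value under 0.05 with its own 1-probe minimum were added after the data were seen. The log2 fold change of Hnf4a ran from -0.37 to -0.29 and that of Sox7 from 0.18 to 0.37, and neither passed 1.5-fold. Several alternatives could not move either value, because both genes were detected on both arrays above the minimum over all identifiers. These were the looser detection limit, detection on both arrays, no minimum signal, the shorter table and the 2-fold limit. Quantile normalization, scaling to equal medians and normexp correction moved both values. The 1-probe minimum signal, alone or with detection by signal, moved Sox7. A detection p-value under 0.05 added Gata6 with -0.68 against an undetected signal with CHIR, which made the count of members past the limit 1 in place of 0. With the 1-probe minimum of that limit, Gata6 had -0.11 and the count was 0. Detection by signal left 1 member detected in LIF (Hnf4a) in place of 2, because Sox7 fell under the 1-probe minimum.

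Over all identifiers, 395 were higher and 387 lower. A detection p-value under 0.05 gave 682 and 684, detection on both arrays 203 and 227, and a 2-fold limit 129 and 85. By construction, the detection settings admit more or fewer identifiers, and the 2-fold limit leaves the same identifiers but asks for a larger change. The 1-probe minimum signal gave 247 higher and 273 lower, normexp correction, with a fitted background SD of 15.4 on each array, 273 and 257, and detection by signal 275 and 311. The higher minimum, which detection by signal also uses, and the offset of 16 added in the normexp correction shrink fold changes of dim identifiers by construction. How much of these last changes came from that was not tested. Among the listed genes named by the rule, the 2-fold limit took Fgf4, Serpinh1, Fbln1, Soat2, Ctsz, Pdgfa and Tfcp2l1 out of the calls. Sp5, undetected in LIF, dropped out where detection on both arrays was required. No other call changed. Signals below 51.9 units in LIF and 47.1 with CHIR, the 1-probe minima, are limited by background.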

Other observations

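Of the identifiers that appeared to have several probes, 280 had a signal over 500 on both arrays together with a detection p-value over 0.05 on both, against 0 of those with 1 probe. That 0 was fixed in advance, because the p-value of 1 probe is the share of negative controls at least as bright. Fgfr2, one of the receptors through which FGF4 acts on primitive endoderm, also appeared to have several probes, with a lower signal and p-values between 0.01 and 0.05. It was named after its values were seen. It had 354.8 in LIF and 132.3 in LIF plus CHIR, with detection p-values of 0.0225 and 0.0403. It was therefore undetected at 0.01, and at 0.05 it was 2.68-fold lower with CHIR (log2 fold change -1.42). Lrp2, the endocytic receptor for which Dab2 is an adaptor, had 85.3 and 14.4, with detection p-values of 0.216 and 0.201. Sox2 had 441.2 and 400.2, with detection p-values of 0.0503 and 0.276.

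Both identifiers of 1 gene, chosen after their values were seen, differed. Krt8, a keratin of simple epithelia that yolk sac endoderm expresses, had 413.8 in LIF and 370.9 in LIF plus CHIR, while the identifier under its older symbol, Krt2-8, had -5.76 and -2.82.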
